A study of Homo sapiens with 6 samples.

Results

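The subject here is a set of 8 long noncoding RNA genes, most of which work in the nucleus or belong to imprinted regions. They are MALAT1, NEAT1, OIP5-AS1, NORAD, TUG1, KCNQ1OT1, H19 and MEG3, measured in cells edited at ZFP36L1 and in wild-type cells. The members were chosen by name, and their symbols were matched to Ensembl identifiers through the GENCODE 29 annotation. All 8 were listed among the 56982 identifiers that both deposited tables shared. Of the 8, 5 passed the filter, which asked for an FPKM (a read count scaled by gene length and library depth) no lower than 1 in 2 or more libraries. KCNQ1OT1, H19 and MEG3 did not.

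The cells were U2OS, a human osteosarcoma line, taken in log-phase growth. A total of 3 libraries came from the line G3C2, labelled as deficient in ZFP36L1 after CRISPR/Cas9 targeting, and 3 came from wild-type U2OS cells, labelled WT. G3C2 is treated here as 1 clone, so the edit and the clone cannot be told apart. The replicates of each genotype are called 1, b and c. The values of replicate 1 were deposited in one table (the first below), and those of b and c together in another (the second).

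Long noncoding RNAs carry no long reading frame and act as RNA. MALAT1 gathers in nuclear speckles, domains rich in splicing factors, and NEAT1 is the scaffold on which paraspeckles are built. The longest forms of both are transcribed through without splicing and have a 3′ end cut by RNase P, which leaves no poly(A) tail and is protected by a triple helix between U-rich stretches and an A-rich tract encoded in the gene. KCNQ1OT1, H19 and MEG3 are each made from 1 parental copy and belong to imprinted regions. ZFP36L1 binds AU-rich elements in RNA and recruits the machinery that shortens poly(A) tails. The RNA had been selected with oligo(dT) beads, so molecules without a tail are sampled only in part.

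The ends of MALAT1 and NEAT1 are shown because these RNAs are the pair on which the results turn. The sequences are from GENCODE 29 transcripts (GRCh38), 5′ to 3′ in DNA letters, and the capitals mark the 2 stretches that a search found in both ends, the first of 16 bases and U-rich in the RNA, the second of 11 bases and A-rich.
MALAT1 3′ end, chr11:65506020-65506116, plus strand: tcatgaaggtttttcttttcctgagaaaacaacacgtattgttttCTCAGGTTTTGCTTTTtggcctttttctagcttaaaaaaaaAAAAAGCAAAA
NEAT1 3′ end, chr11:65445439-65445540, plus strand: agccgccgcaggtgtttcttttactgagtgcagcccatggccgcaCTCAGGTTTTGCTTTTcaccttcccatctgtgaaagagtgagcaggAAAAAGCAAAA
In NEAT1 the second stretch is the end of the annotated transcript, and in MALAT1 the annotated transcript runs on for 353 bases. The stretches lie 25 bases apart in MALAT1 and 30 bases apart in NEAT1.

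The libraries of the second table held between 22610000 and 28980000 reads, recovered from the steps between low FPKM values. The totals that FPKM were divided by were close to the recovered reads in replicate b. In replicate c they were 22560000 in G3C2, with 25840000 reads recovered, and 25410000 in WT, with 22610000 recovered. FPKM ratios of G3C2 to WT in replicate c are thus higher than on recovered reads, for every gene. The cause was not tested. ZFP36L1 itself had FPKM of 238.1, 105.1 and 82.4 in G3C2 replicates 1, b and c, against 165.2, 57.1 and 127.5 in WT. G3C2 was thus the higher in replicate 1 and in replicate b but not in replicate c (log2 fold change 0.26, limma adjusted p = 0.752). The mRNA level does not check the edit, which may act on the protein alone. The 9 osteoblast-lineage markers were mixed. SPARC, a bone matrix protein, had FPKM of at least 190.9 in each library and COL1A1, a collagen chain, of at least 82.1, while COL1A2 and ALPL stayed under 1 and IBSP was listed at 0. On the log2(FPKM + 1) scale COL1A1 was higher in G3C2 by 2.10, 1.59 and 0.06 in replicates 1, b and c (limma adjusted p = 0.278). The 4 leukocyte markers summed to at most 0.444. Among epithelial markers EPCAM reached 18.7 in WT replicate 1 and 6.94 in the second table, and KRT14 reached 6.30. CDH1 was at most 1.01 and KRT5 at most 0.364. Among neuronal ones SNAP25 reached 9.28 in G3C2 replicate 1 and 3.80 in the second table. RBFOX3 was at most 2.24 and SYP at most 1.70. The endothelial VWF was at most 1.87, PECAM1 0.124 and CDH5 0.0468. Mitochondrial genes took 4.93%, 7.47% and 6.73% of the summed FPKM in G3C2 replicates 1, b and c, against 5.21%, 8.83% and 13.96% in WT, so WT replicate c stood apart from the other 5 libraries.

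The members comprised 5 abundant RNAs, 2 with low values and 1 listed at 0. In the second table, whose values are per base of exon, NORAD led with a median FPKM of 66.5 (53.1 to 80.2 over 4 libraries). MALAT1 followed with a median of 23.9 (15.0 to 61.4), then TUG1 with 21.5 (17.6 to 23.9) and NEAT1 with 19.4 (11.8 to 56.9). The ranges of MALAT1, TUG1 and NEAT1 overlapped, so their order is not set by these libraries, and the MALAT1 and NEAT1 values of WT replicate c lay within the range of NORAD. OIP5-AS1 had a median of 9.33 (8.16 to 10.6), below every value of the other 4. H19 had a median of 0.137 (0.122 to 0.26) and KCNQ1OT1 of 0.0398 (0.0198 to 0.0571), and MEG3 was listed at 0. The first table gave another order, with OIP5-AS1 above NORAD, and levels there appear to rest on a shorter gene length for members with several transcripts (the exon length of OIP5-AS1 is 7.49 times the mean length of its transcripts). Levels are therefore compared between genes in the second table alone.

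**Figure D1:**
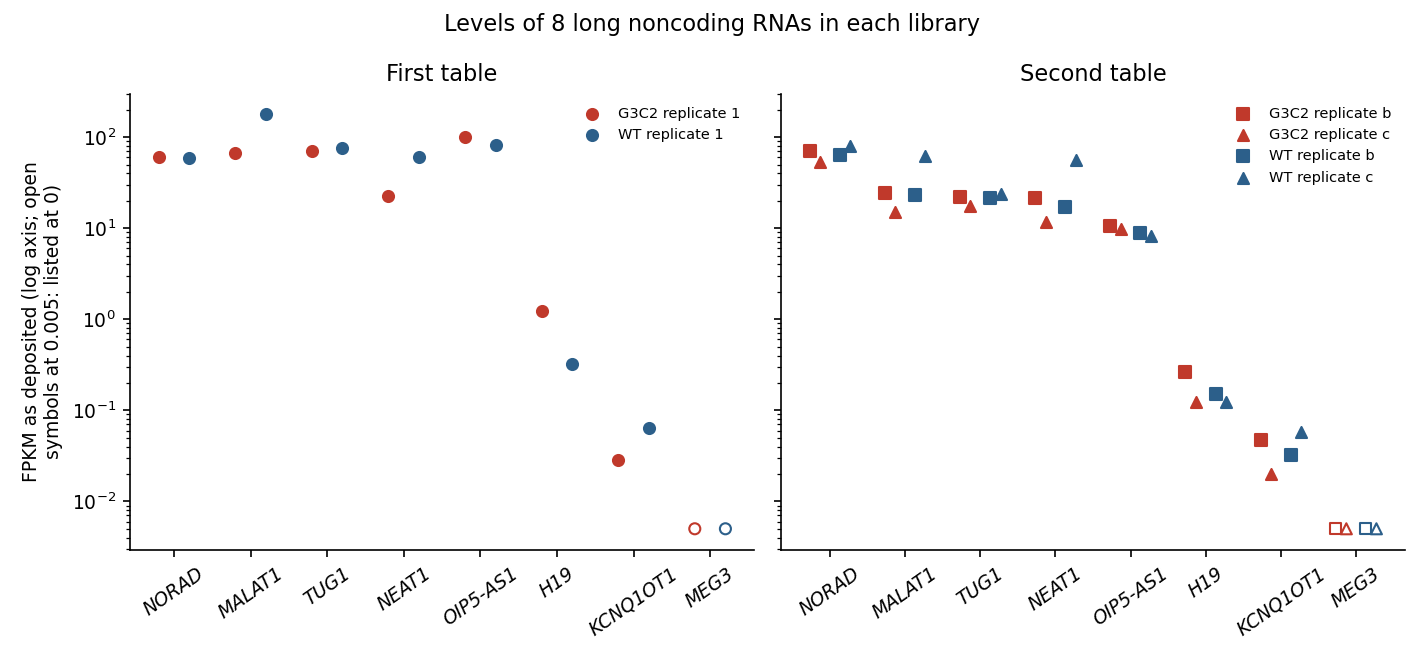
FPKM as deposited (log axis) of the 8 long noncoding RNAs in each library, first table left and second table right, G3C2 in red and left of WT in blue, with symbols for the replicates. MALAT1 and NEAT1 spread most within each table among the 5 abundant RNAs, with WT replicate c high for both in the second table, and MEG3, drawn open at 0.005, was listed at 0 in all 6 libraries.

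MALAT1 and NEAT1 were lower in G3C2 than in WT in replicates 1 and c. In replicate b MALAT1 was close to WT, at 1.06 times, and NEAT1 was higher in G3C2, at 1.24 times. Neither difference passed the test over all genes. The other abundant members, NORAD, TUG1 and OIP5-AS1, differed by at most 1.51-fold in FPKM in each replicate pair. That largest value is NORAD in replicate c, lower in G3C2, and would be larger on recovered reads (6397 in G3C2 against 10876 in WT). On the reads of the second table limma-voom gave -0.42 for NORAD and -0.39 for TUG1, against -1.17 for MALAT1 and -1.18 for NEAT1, none of them called. In these bulk libraries, fewer cells that make an RNA and less of it per cell cannot be told apart.

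MALAT1 (ENSG00000251562) lies on chromosome 11 at 65497688 to 65506516 on the plus strand of GRCh38, and its longest annotated transcript has 8708 bases in 1 exon. It had FPKM of 66.5, 24.6 and 15.0 in G3C2 replicates 1, b and c, against 178.9, 23.2 and 61.4 in WT. The G3C2 value was thus below WT in replicates 1 and c and slightly above it in replicate b, and within the second table the genotypes overlapped. The ratio of G3C2 to WT was 0.372 in replicate 1, 1.06 in replicate b and 0.244 in replicate c. The second table counted 5751 and 2985 MALAT1 reads in G3C2 replicates b and c, against 6074 and 13777 in WT, so counting error is small beside these differences. On the log2(FPKM + 1) scale MALAT1 differed by -1.10, G3C2 minus WT (SE 0.39, n = 3 per genotype), with an unadjusted p of 0.0294 and an adjusted p of 0.307 (limma, 15001 genes).

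NEAT1 (ENSG00000245532) lies upstream of MALAT1 on the same strand, at 65422774 to 65445540, with a longest transcript of 22743 bases in 1 exon. Its FPKM values were 22.9, 21.5 and 11.8 in G3C2 replicates 1, b and c, against 60.9, 17.3 and 56.9 in WT. The pattern was that of MALAT1, with WT far above G3C2 in replicates 1 and c and below it in replicate b. The ratios of G3C2 to WT were 0.375, 1.24 and 0.207. Its difference was -1.09 (SE 0.46, limma adjusted p = 0.376). NEAT1 has a short form with a poly(A) tail and a long form without one, and the gene-level values do not separate them.

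No member of the 5 tested passed the adjusted threshold of 0.05, against 7 of 15001 genes or 0.0467% over the whole table. With the replicate label as a block, 1 gene of the whole table was called and no member. MALAT1 was the 1 of 5 members with an unadjusted p under 0.05, against 13.6% of all genes. MALAT1 and NEAT1 were the 2 of 5 that were lower in G3C2 by at least 1 on the log2(FPKM + 1) scale in both replicates 1 and c, against 0.900% of all genes. That last criterion was set after the values had been seen. Without replicate b, MALAT1 came to -1.69 (limma adjusted p = 0.0409) and NEAT1 to -1.78 (limma adjusted p = 0.0132), both past the threshold, in a fit with 1 residual degree of freedom. Without replicate c, they came to -0.67 and -0.54 (limma adjusted p = 0.234 and 0.384). Over the 23 alternatives run, the adjusted p lay between 0.0409 and 0.99999 for MALAT1 and between 0.0132 and 0.99999 for NEAT1. With limma-voom on recovered reads of both tables, they came to -1.25 each, where the median of all genes was -0.15.

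Libraries of the same genotype also differed in MALAT1 and NEAT1, and in opposite directions. Replicate c had 0.61 times the MALAT1 level of replicate b in G3C2 and 2.65 times in WT. For NEAT1 the same ratio was 0.545 in G3C2 and 3.29 in WT. The high values of WT replicate c came with its high mitochondrial share of 13.96%, and the part of that library's RNA composition in the result was not tested. In replicate 1, where both RNAs were also lower in G3C2, the mitochondrial share was 4.93% in G3C2 and 5.21% in WT. Scaled approximately to exon length, MALAT1 and NEAT1 had FPKM of 25.8 and 12.9 in WT replicate 1. The values were 23.2 and 17.3 in WT replicate b, 61.4 and 56.9 in WT replicate c, and 9.60 and 4.86 in G3C2 replicate 1. WT replicate 1 was thus not high in the way of WT replicate c. Whether the mitochondrial share bears on either RNA was not tested. Without WT replicate c the difference was -0.75 for MALAT1 and -0.65 for NEAT1 (limma adjusted p = 0.650 and 0.745).

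The difference between the genotypes was compared between the tables with an interaction term. The second table's difference minus the first's was 0.47 for MALAT1 and 0.43 for NEAT1 (SE 1.20), with limma adjusted p of 0.950 and 0.958. For the 5 members the adjusted p lay between 0.948 and 0.992, and no gene of the 15001 was called (429 had an unadjusted p under 0.05). The errors leave room for differences as large as the effects themselves.

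**Figure D2:**
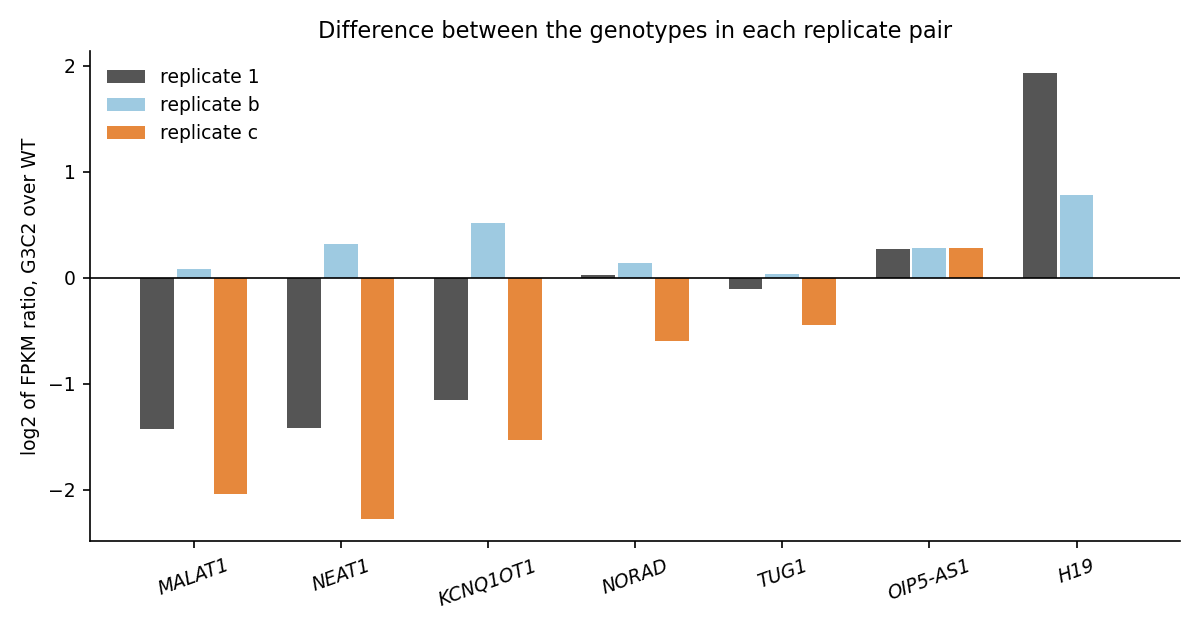
Log2 of the FPKM ratio of G3C2 to WT for 7 members in replicate pairs 1, b and c (MEG3 was listed at 0). MALAT1, NEAT1, KCNQ1OT1 and, by less, TUG1 (-0.11, 0.04 and -0.44) lay below 0 in replicates 1 and c and above 0 in replicate b. The 3 bars of OIP5-AS1 are nearly equal at 0.27 to 0.28.

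MALAT1 and NEAT1 followed each other closely. After centring on the table mean, Pearson's r between them over the 6 libraries was 0.995, which placed NEAT1 at rank 10 of the 15000 other tested genes for likeness to MALAT1. Centring leaves few free points, and the genes share libraries and genotype, so a high r is common. The 2 genes most like MALAT1 by this measure were RABL2A (a small GTPase, r = 0.9996) and PPFIA4, a liprin (0.999). For NEAT1 they were SCX, a transcription factor of tendon cells, and ALDH2, a mitochondrial aldehyde dehydrogenase (0.9997 and 0.999). None of these 4 genes was called (limma adjusted p between 0.344 and 0.466). In the second table the ratio of MALAT1 to NEAT1 stayed between 1.08 and 1.34, with 1.14 and 1.28 in G3C2 and 1.34 and 1.08 in WT. In replicate c G3C2 had 0.244 times the MALAT1 and 0.207 times the NEAT1 of WT, so the levels differed far more than their ratio.

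**Figure D3:**
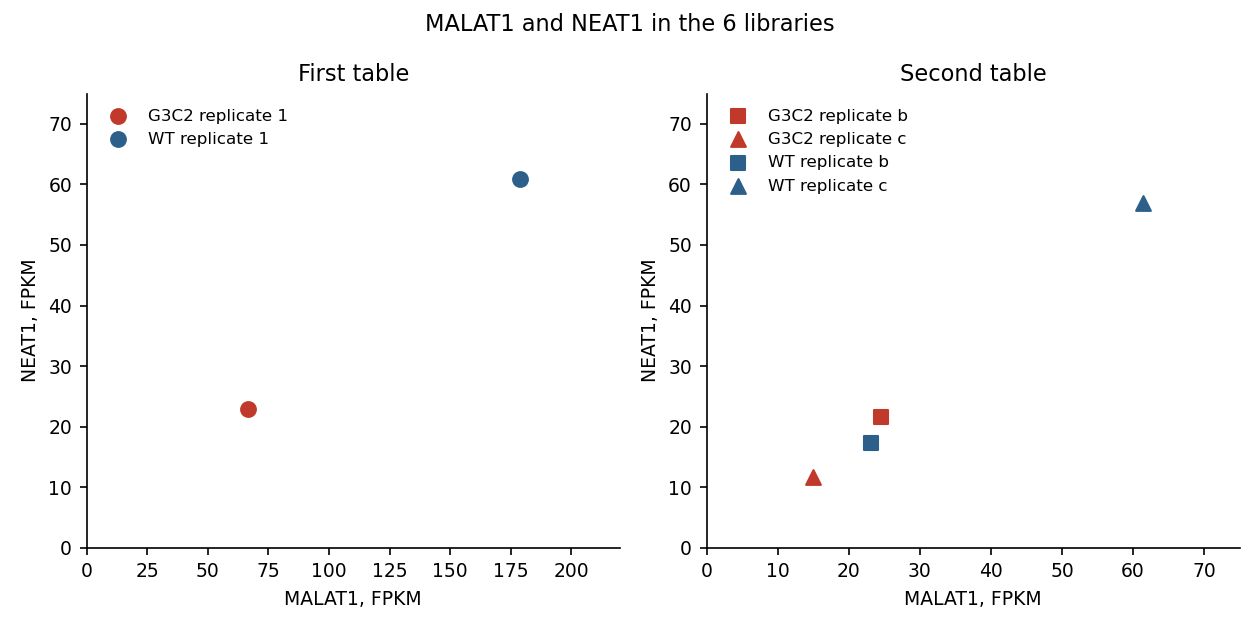
NEAT1 against MALAT1 FPKM in each library on linear axes, first table left and second table right, G3C2 in red and WT in blue. The libraries lie near a line through the origin in the second table, with G3C2 replicate c lowest at 15.0 and 11.8 and WT replicate c highest at 61.4 and 56.9.

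KCNQ1OT1 (ENSG00000269821) showed the same order of libraries at a far lower level. It is the antisense transcript inside KCNQ1 that represses the neighbouring imprinted genes on the paternal copy, annotated at chromosome 11, 2608328 to 2699994 on the minus strand, as 1 exon of 91667 bases. Its FPKM was 0.0288, 0.0469 and 0.0198 in G3C2 replicates 1, b and c, against 0.0641, 0.0327 and 0.0571 in WT. These values rested on 59, 114 and 41 reads in G3C2 and on 110, 89 and 133 reads in WT. G3C2 was thus lower in replicates 1 and c and higher in replicate b, with ratios to WT of 0.449, 1.43 and 0.347. It lay below the filter, and limma-voom on the recovered reads gave -0.82 (SE 0.47, limma adjusted p = 0.468). Without the filter it was -0.03 (limma adjusted p = 0.728) on the log2(FPKM + 1) scale, which flattens so low a gene. The library protocol did not mark strand, so reads of KCNQ1OT1 cannot be told apart from reads of unspliced KCNQ1 RNA from the opposite strand. KCNQ1, a potassium channel gene, had FPKM of 0.0355, 0.0678 and 0.0299 in G3C2 replicates 1, b and c, against 0.254, 0.182 and 0.0885 in WT, lower in G3C2 in all 3 pairs and too low for the filter.

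NORAD (ENSG00000260032, chromosome 20, 36045622 to 36050960, minus strand) is a cytoplasmic RNA of 5339 bases in 1 exon that binds Pumilio proteins and is needed for a stable chromosome number. Its FPKM was 60.0, 69.7 and 53.1 in G3C2 replicates 1, b and c, against 59.0, 63.2 and 80.2 in WT. The ratio of G3C2 to WT was 1.02 in replicate 1 and 1.10 in replicate b, and G3C2 was the lower in replicate c, at 0.662 times WT. Its difference was -0.14 (SE 0.19, limma adjusted p = 0.772), and without replicate c it turned to 0.08 (limma adjusted p = 0.693, and between 0.615 and 0.99999 over the alternatives).

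NORAD holds 15 copies of the Pumilio element TGTANATA on its sense strand, or 2.81 per kilobase. That is the second highest number and the fourth highest density among the 1532 long noncoding genes tested, of which 10.9% hold any copy in their longest transcript. Of the 47 with a longest transcript of at least 5000 bases, 61.7% hold one. The other members hold far fewer per kilobase, with 9 copies in KCNQ1OT1, 6 in NEAT1, 2 in TUG1, 1 each in OIP5-AS1 and MEG3, and none in MALAT1 and H19. The first 4 copies in NORAD that lie more than 40 bases from another copy are shown to give the repeated element, with the element in capitals.
NORAD, chr20:36050181-36050212, minus strand: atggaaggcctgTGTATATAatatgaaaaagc
NORAD, chr20:36049802-36049833, minus strand: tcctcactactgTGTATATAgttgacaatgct
NORAD, chr20:36049701-36049732, minus strand: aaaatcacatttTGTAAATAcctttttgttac
NORAD, chr20:36049117-36049148, minus strand: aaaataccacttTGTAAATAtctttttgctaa
The Pumilio proteins and other proteins known to bind NORAD, a list of 8 genes, were all tested and none was called. Their median log2 difference was 0.20, against 0.01 over all genes, and by pair it was 0.01, -0.03 and 0.71 in replicates 1, b and c. ALYREF, an mRNA export factor, had FPKM of 135.4, 80.7 and 167.7 in G3C2 replicates 1, b and c, against 155.5, 83.9 and 51.3 in WT (0.48, limma adjusted p = 0.612). It was thus higher in G3C2 in replicate c alone.

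TUG1 (ENSG00000253352, chromosome 22, 30969245 to 30979395, plus strand) is a broadly expressed spliced RNA of nucleus and cytoplasm, first described in developing mouse retina. It had FPKM of 70.7, 21.8 and 17.6 in G3C2 replicates 1, b and c, against 76.1, 21.2 and 23.9 in WT. The groups overlapped within the second table, and the ratio of G3C2 to WT was 0.929, 1.03 and 0.737. Its difference was -0.16 (SE 0.16, limma adjusted p = 0.674). TUG1 and NORAD resembled each other in their order of libraries (r = 0.940 over 6 libraries, rank 366 for likeness to TUG1). In the second table both also had the order of libraries of MALAT1, NEAT1 and KCNQ1OT1, over a narrower range.

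OIP5-AS1 (ENSG00000247556, chromosome 15, 41283990 to 41309737, plus strand), the mammalian form of the zebrafish RNA cyrano with a conserved site for the microRNA miR-7, was the member with the steadiest difference. It had FPKM of 99.3, 10.6 and 9.89 in G3C2 replicates 1, b and c, against 82.1, 8.77 and 8.16 in WT. In FPKM, G3C2 was the higher in each pair and the genotypes did not overlap within either table. The FPKM ratio was 1.21 in replicate 1, 1.21 in replicate b and 1.21 in replicate c. Of the 5 members tested it was the 1 that was higher in G3C2 in all 3 pairs, against 17.8% of all genes, and none of the 5 was lower in all 3 pairs, against 18.6%. Its difference was 0.26 (SE 0.13, limma adjusted p = 0.457). In each genotype its level in replicate c was 0.93 times that in replicate b, whereas MALAT1 and NEAT1 moved in opposite directions in the 2 genotypes. With limma-voom on the reads of the second table the difference fell to 0.09, where the median of all genes was -0.11. In replicate c OIP5-AS1 had 2827 of 25840000 recovered reads in G3C2 and 2626 of 22610000 in WT, a slightly lower share in G3C2. Its higher level in that pair therefore rests on the FPKM scaling.

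Exons of OIP5-AS1 overlap those of OIP5, a centromere protein gene on the opposite strand, and without strand their reads cannot be told apart where they overlap. OIP5 had FPKM of 13.8, 12.2 and 21.9 in G3C2 replicates 1, b and c, against 14.0, 16.0 and 10.0 in WT. It did not share the constant ratio, being lower in G3C2 in replicates 1 and b and higher in replicate c.

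AU-rich elements, the sites that ZFP36L1 is known to bind, were counted in the longest transcripts as TATTTAT and as the nonamer TTATTTATT on the sense strand, where each nonamer also counts as a TATTTAT. Copies that overlap were each counted. OIP5-AS1 holds 6 of the first and 4 of the second, the highest density among the 8 members at 0.680 TATTTAT per kilobase. That density has rank 101 among the 1532 long noncoding genes tested. MALAT1 holds 1 of each, NEAT1 5 and 1, KCNQ1OT1 3 and none, TUG1 1 and none, MEG3 1 of each, and NORAD and H19 none. Among the 47 tested long noncoding genes with a longest transcript of at least 5000 bases, 66.0% hold TATTTAT and 36.2% hold the nonamer. The first nonamer of each of the 3 tested members that hold one is shown in capitals with its surroundings. In OIP5-AS1 it runs on into further copies that overlap it and are left in small letters.
MALAT1, chr11:65500812-65500842, plus strand: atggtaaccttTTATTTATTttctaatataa
NEAT1, chr11:65430848-65430878, plus strand: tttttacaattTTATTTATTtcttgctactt
OIP5-AS1, chr15:41299107-41299137, plus strand: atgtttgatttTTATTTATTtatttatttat
These letters are a description of the transcripts and not evidence of binding. The member with the most nonamers, counted with overlaps, was OIP5-AS1, the one at 1.21 times WT in FPKM. MALAT1 and NEAT1, with 1 each, had the largest differences among the 5 tested. None of the 3 was called, and a link between copies and difference was not tested.

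H19 (ENSG00000130600, chromosome 11, 1995176 to 2001470, minus strand), a growth-associated RNA made from the maternal copy, lay near the limit of detection. It had FPKM of 1.23, 0.26 and 0.122 in G3C2 replicates 1, b and c, against 0.322, 0.151 and 0.122 in WT. In the second table this came to 20 and 8 reads in G3C2 against 13 and 9 reads in WT, and the 95% Poisson intervals of the 20 reads (12.2 to 30.9) and the 13 reads (6.92 to 22.2), which cover counting error only, overlapped. H19 was 3.82-fold higher in G3C2 in replicate 1 and equal in replicate c. It was below the filter, and limma-voom on the recovered reads of both tables gave 0.79 (SE 0.58, limma adjusted p = 0.560). Its imprinted partner IGF2, a fetal growth factor, had FPKM of 15.5 in G3C2 and 7.27 in WT in replicate 1, and at most 0.503 in either genotype in the second table (0.34, limma adjusted p = 0.570).

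MEG3 (ENSG00000214548, chromosome 14, 100779410 to 100861031, plus strand), a maternally expressed RNA of the imprinted DLK1 to DIO3 region, was listed at 0 in all 6 libraries. A 0 in the second table cannot be read as a limit on the level. EHMT2, a histone methyltransferase of widespread expression, had FPKM of 38.4 in G3C2 and 37.3 in WT in the first table and was listed at 0 in all 4 libraries of the second. EHMT2 does not bear on the first table, where MEG3 was also listed at 0. The annotated genes AL117190.1 and AL117190.2, whose exons overlap those of MEG3, were also listed at 0. DLK1, MEG8 and DIO3 of the same region were also listed at 0 in each library, and MEG9 had a value above 0 in G3C2 replicate b alone (0.0117). The nearest tested gene to MEG3, BEGAIN, a synaptic protein gene 192 kilobases away, was higher in G3C2 by 0.41, 0.34 and 0.31 in replicates 1, b and c (0.35, limma adjusted p = 0.373).

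The wider group of imprinted genes was close to the whole table. Of 35 listed, 24 were tested and none was called. Their median difference was 0.06, against 0.01 over all genes, with 6 of the 24 higher in G3C2 in all 3 pairs and 4 lower in all 3, where the shares over all genes are 17.8% and 18.6%. GNAS, a G protein subunit and the most abundant of them, had FPKM of 1196, 130.5 and 116.2 in G3C2 replicates 1, b and c, against 813.9, 100.7 and 88.6 in WT. It was higher in G3C2 in all 3 pairs (0.44, limma adjusted p = 0.381). CDKN1C, a cell-cycle inhibitor that KCNQ1OT1 is known to repress and its nearest tested gene on one side, had FPKM of 6.10, 2.998 and 0.376 in G3C2, against 4.96, 3.65 and 0.969 in WT, with a difference of -0.16 (limma adjusted p = 0.904). In the list of 16 polycomb and imprint-maintaining genes, 15 were tested and none was called (median 0.10).

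The genes of proteins that share structures with MALAT1 and NEAT1 had medians above 0 in replicate c, where both RNAs were lower in G3C2. The FPKM scaling raised the ratio of G3C2 to WT in that pair for every gene. All medians of replicate c given here would thus be lower on recovered reads. All 27 paraspeckle proteins were tested and none was called, with a median difference of 0.17, and of -0.06, -0.04 and 0.52 in replicates 1, b and c. Their most abundant member, HNRNPA1, a splicing regulator, had FPKM of 2105, 265.1 and 364.1 in G3C2, against 1498, 282.9 and 183.8 in WT (0.46, limma adjusted p = 0.503). Of the nuclear speckle and splicing proteins 22 were tested and none was called (median 0.16, and -0.12 in replicate 1). In replicate c, where MALAT1 and NEAT1 were lowest in G3C2 relative to WT, these 22 had a median of 0.59 higher in G3C2, against 0.07 over all genes. The 12 genes of RNase P, RNase Z and METTL16, which act on the ends of these RNAs, had a median of 0.12, and of -0.23, -0.10 and 0.76 in replicates 1, b and c. The 20 genes of the nuclear exosome, which degrades noncoding RNA, also had a median of 0.12, and of -0.22, -0.06 and 0.68 by pair. None of these was called. In replicate 1 all 4 lists were on the same side as MALAT1 and NEAT1, lower in G3C2, against a median of -0.08 over all genes. The rise in replicate c was not particular to these 4 lists. The 15 polycomb and imprint-maintaining genes had a median of 0.62 there and the 8 Pumilio and NORAD-associated genes 0.71. The 24 imprinted genes had -0.002 and the 6 osteoblast-lineage markers tested -0.12.

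A list of other named long noncoding RNAs, many of them hosts of small nucleolar RNAs, was split in replicate c. Of 26 tested, none was called, with medians of -0.14, -0.03 and 0.45 in replicates 1, b and c. All 1532 long noncoding genes tested had medians of -0.14, 0.01 and -0.12, against -0.07, -0.01 and 0.10 for protein-coding genes, so the list is not typical of its class in replicate c. DANCR, a host of small nucleolar RNAs, had FPKM of 113.7, 40.7 and 72.9 in G3C2, against 128.1, 34.5 and 33.1 in WT (0.39, limma adjusted p = 0.587). SNHG6, another such host, had 66.1, 41.4 and 66.9 in G3C2, against 74.3, 45.3 and 35.5 in WT. Both hosts were higher in G3C2 in replicate c, where MALAT1 and NEAT1 were lower. Others of the list were on the side of MALAT1 in replicate c, among them HOTAIRM1 (-1.10), NR2F1-AS1 (-0.89), LINC00511 (-0.80) and HOXA11-AS (-0.79), chosen here after their values were seen.

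Long noncoding genes whose longest transcript is unspliced were looked at next, a class chosen after the values of MALAT1 and NEAT1 had been seen and therefore not tested. Of the 1532 long noncoding genes tested, 15 have an unspliced longest transcript of at least 5000 bases, MALAT1, NEAT1 and NORAD among them. In G3C2 13 of the 15 were lower in replicate 1, 5 in replicate b and 14 in replicate c. Without the 3 members, 11, 5 and 11 of 12 were lower, with median differences of -0.15, 0.02 and -0.58. Over all genes 58.4%, 50.7% and 43.8% were lower in replicates 1, b and c. The class without the members thus had the same order of pairs as MALAT1 and NEAT1. AL590004.3, a gene of this class on chromosome 6, had FPKM of 4.89, 8.95 and 6.38 in G3C2, against 9.90, 11.98 and 37.4 in WT. It thus also peaked in WT replicate c. LINC01139 was the exception in replicate 1, higher in G3C2 by 0.93. The order of pairs was not particular to this class. The 32 long noncoding genes with a spliced longest transcript of at least 5000 bases had median differences of -0.24, 0.07 and -0.29 in replicates 1, b and c. Of these 32, 24, 9 and 21 were lower in G3C2. All 414 long noncoding genes with an unspliced longest transcript had medians of -0.08, 0.02 and -0.06, and the 1532 long noncoding genes of -0.14, 0.01 and -0.12. Of the 1532, 2.02% were lower by at least 1 on the log2(FPKM + 1) scale in both replicates 1 and c, against 0.642% of protein-coding genes.

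**Figure D4:**
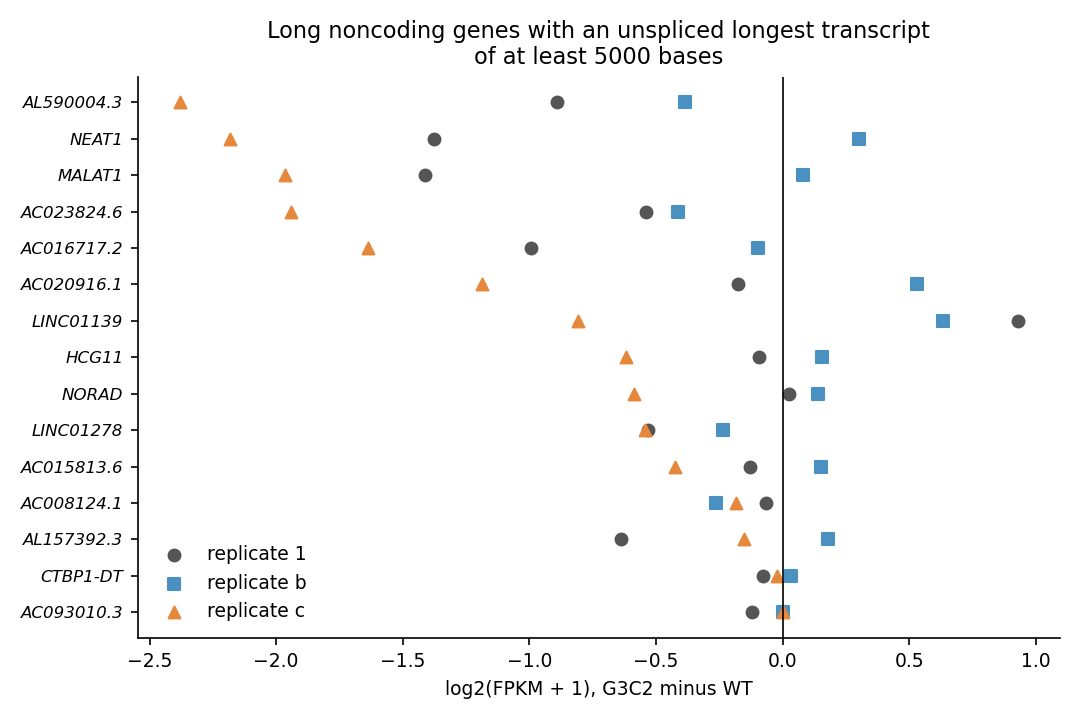
Difference in log2(FPKM + 1), G3C2 minus WT, for the 15 tested long noncoding genes with an unspliced longest transcript of at least 5000 bases, with 1 symbol per replicate pair and genes sorted by replicate c. Symbols of replicate c lie left of 0 for 14 of 15 genes and those of replicate 1 for 13, while those of replicate b lie on either side.

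Of the genes beside NEAT1, FRMD8, 9.2 kilobases before it, differed by -0.42, -0.27 and 0.01 in replicates 1, b and c. AP000769.1, a transcribed pseudogene that lies between NEAT1 and MALAT1, differed by 0.24, -0.30 and -0.77. Neither was called (limma adjusted p = 0.552 and 0.598). The annotated antisense gene over MALAT1 (AP000769.2) was listed at 0 in all 6 libraries. The nearest tested neighbours of the other members were not called either, with limma adjusted p between 0.373 and 0.904.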

How the data were processed

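RNA selected with oligo(dT) beads was measured in 6 libraries, grouped by their titles into G3C2 and WT. The deposited values are FPKM, per the file headers, in 2 tables. CASAVA, HISAT2 and GRCh38.p12 are named in the submitters' processing notes, without versions. The sources used here give no counting tool, gene length or strand setting. The series text names 3 occasions of growth, but the titles do not tie libraries to them, so p-values measure the spread between libraries, which may be technical in part.

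Summed FPKM was 712633 in G3C2 and 705014 in WT in the first table, and 235190 to 319282 in the second, so genotypes were compared within tables. The extremes of the second table are WT and G3C2 replicate c, so comparing within tables does not remove their offset in scaling. Fits on recovered reads do not use that scaling. Values times GENCODE 29 exon length gave whole reads (tolerance 0.02) for 98.1% of low values in the second table. In the first, the mean transcript length gave whole reads for 80.2% to 80.5% of genes with at least 3 transcript lengths, against 4.29% to 4.46% with exon length. Members with several transcripts did not come out whole there, so their reads in the first table are approximate.

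Genes with an FPKM no lower than 1 in 2 or more libraries (15001) were tested on log2(FPKM + 1) with limma 3.58.1 (R 4.3.3), using genotype and table terms, a mean-variance trend, and p-values adjusted by Benjamini-Hochberg with a threshold of 0.05. Fold changes on this scale understate those of low genes. The fit was checked on simulated data. Same-numbered libraries deviated together over both tables (replicate 1 r = 0.93, replicate b 0.80, replicate c 0.60), which the separate tables alone would produce, and not within the second table (r = -0.17). A fit with the replicate block was therefore run beside the main one.

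The members and lists were chosen with earlier results of these data known. Named beside the members were the 2 genes most like each, their nearest tested neighbours and overlapping genes, and of each list the called members or else the 2 with the largest mean FPKM in the second table, with some shown as values only where they bear on a member. IGF2, CDKN1C, DLK1, MEG8, MEG9 and DIO3 were named for lying in the members' imprinted regions, and AL590004.3, LINC01139 and EHMT2 after their values were seen. Alternatives were another pseudocount, other filters, scalings and variance models, the block, the second table alone, no table term, and each library and pair left out. Chosen after seeing the data were the first table on exon length and limma-voom on the recovered reads of both tables. Other steps were done in Python 3.11.15 (pandas 2.3.3, matplotlib 3.10.9 and scipy 1.17.1). One neighbouring gene is not reported here.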

Additional observations from a re-analysis of the deposited data

How the results depend on the processing

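MALAT1 and NEAT1 kept a negative difference, and OIP5-AS1 a positive one, under all 23 alternatives run, and none of the 3 passed the threshold except MALAT1 and NEAT1 without replicate b. Over the left-out libraries and pairs the difference of MALAT1 lay between -1.69 and -0.67, of NEAT1 between -1.78 and -0.54, and of NORAD between -0.28 and 0.082, positive only without replicate c. TUG1 stayed between -0.39 and -0.03 and OIP5-AS1 between 0.09 and 0.29 over all alternatives, neither past the threshold. The interaction of OIP5-AS1 between the tables turned to 0.00065 with a pseudocount of 0.1, against -0.02 with 1. With the replicate block the 5 members kept their values and were not called (limma adjusted p = 0.393 for MALAT1, 0.454 for NEAT1, 0.573 for OIP5-AS1, 0.757 for TUG1 and 0.829 for NORAD).

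Over the whole table, 3 genes were called higher and 4 lower in G3C2. No gene was called in either direction with no filter, no table term, the second table alone (with or without the replicate block) or limma-voom on its reads. The block over both tables gave 0 higher and 1 lower, equal medians 5 higher, a mean FPKM of at least 5 gave 1 lower, limma-voom on the reads of both together 1 higher and 13 lower, and the same with the block 11 lower. Leaving out libraries or pairs gave between 0 and 448 genes higher and between 0 and 457 lower, the highest counts without replicate c. The cause was not tested. With 3 libraries a genotype and few residual degrees of freedom, differences of the size seen in OIP5-AS1, NORAD and TUG1 could not be told from 0. H19 and KCNQ1OT1 rest on few reads, and the 0 of MEG3 in the second table may be a failed estimate. Whether that also holds for its 0 in the first table was not tested.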
